A study of Mus musculus with 8 samples.

Results

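The RNA of 9 genes tied to myotonic dystrophy was followed in mouse gastrocnemius (GAS) muscle after knockdown of MYTHO (MYTHO-KD). The 9 were taken by gene symbol: the disease gene of type 1 (*Dmpk*) and its neighbour (*Six5*), the disease gene of type 2 (*Cnbp*), the muscleblind-like genes (*Mbnl1*, *Mbnl2* and *Mbnl3*), a pair of CELF genes (*Celf1* and *Celf2*) and the muscle chloride channel (*Clcn1*). All 9 were found, each as a single gene-level probe set that names no other gene, among the 22206 probe sets of a Clariom S Mouse array. The 8 arrays came from male C57/Bl6j mice, 14 weeks old according to the labels, 3 weeks after an intramuscular adeno-associated virus (AAV) injection. In the AAV sh-RNA MYTHO group (MYTHO), 4 muscles carried a short hairpin against *Mytho*. In the AAV sh-RNA scrmb group (scrmb), 4 muscles carried a scrambled hairpin, so the controls were virus-treated too. By the study's methods, each animal received MYTHO virus in one leg and scrambled virus in the other, and the letters A to D stand for the 4 animals. The hairpins were driven by a U6 promoter, which is not specific to a cell type, in a serotype chosen for its tropism for muscle. Knockdown in cells other than fibres was not measured, and each value is an average over all cells in a piece of muscle.

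In myotonic dystrophy type 1 (DM1), a CTG repeat in the non-coding end of *DMPK* expands, and the RNA made from it gathers in the nucleus and traps MBNL proteins. MBNL proteins drive the switch from fetal to adult splicing in muscle and are opposed by CELF1, so when they are trapped, RNAs such as that of the chloride channel are spliced in their fetal form and the fibre membrane becomes hyperexcitable, which gives myotonia. In type 2, a CCTG repeat in an intron of *CNBP* traps the same proteins. The study set the myopathy of MYTHO-KD muscle beside DM1, naming weakness, central nuclei and ultrastructural defects among the shared features. At the time point of these arrays, the study found specific force of tibialis anterior muscle not significantly changed, and lower force at later times. Its histology at that early time point showed nothing major beyond very rare ragged blue fibres. The question here is whether the RNA levels of these genes differed between MYTHO and scrmb muscle at that early time point. The mice carry no expanded repeat, and a gene-level array signal holds no information on which exons were used.

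To show the DNA in question, the 250 bases before the listed transcript start are printed for 3 of the genes, from RefSeq on build GRCm38.p6, the assembly also known as mm10. *Dmpk* and *Six5* are shown as the pair at the DM1 locus, and *Clcn1* as the gene that carries the myotonia. They lie at chr7:19083608-19083857, chr7:19094294-19094543 and chr6:42286435-42286684, all on the plus strand. Capitals mark the E-box CANNTG, the letters bound by MyoD-type factors of muscle. It reads the same on either strand, and no matches in these windows overlap.
Dmpk: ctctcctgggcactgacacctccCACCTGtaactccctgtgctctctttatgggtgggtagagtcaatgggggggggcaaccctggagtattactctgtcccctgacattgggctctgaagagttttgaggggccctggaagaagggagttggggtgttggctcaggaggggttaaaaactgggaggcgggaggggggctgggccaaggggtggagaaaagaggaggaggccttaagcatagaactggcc
Six5: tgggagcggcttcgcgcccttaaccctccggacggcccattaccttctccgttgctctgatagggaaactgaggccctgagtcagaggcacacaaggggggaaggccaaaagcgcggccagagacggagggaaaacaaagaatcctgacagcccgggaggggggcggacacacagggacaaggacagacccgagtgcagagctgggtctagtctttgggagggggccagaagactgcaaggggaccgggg
Clcn1: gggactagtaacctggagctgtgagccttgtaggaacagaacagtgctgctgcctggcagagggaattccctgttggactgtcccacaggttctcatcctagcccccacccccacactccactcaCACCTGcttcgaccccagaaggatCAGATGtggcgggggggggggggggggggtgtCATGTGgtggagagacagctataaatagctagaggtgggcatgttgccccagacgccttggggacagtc
The start of a gene given below is that of its outermost transcript, so the *Dmpk* and *Clcn1* windows lie partly or wholly inside the listed gene. The *Dmpk* window held 1 E-box, whose first base lay 227 bases before the start, and the *Six5* window held none. The *Clcn1* window held 3, at 125, 101 and 69 bases before the start. Among 32851 such windows of 27025 genes, 66.2% held at least 1 E-box and 12.2% held 3 or more. The *Six5* window held 13 CpG dinucleotides, against 1 for *Dmpk* and 3 for *Clcn1*, with a median of 6 over all windows. These letter matches are descriptions of sequence, and no binding was measured.

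The arrays were alike in scale, with median log2 signals of 6.39 to 6.47 and correlations between arrays of 0.972 to 0.988 across probe sets. The target of the hairpin, listed as D230025D16Rik, had log2 signals of 10.78 to 11.35 in scrmb and 8.08 to 8.80 in MYTHO muscle, a log2 fold change of -2.81 ± 0.21 (SE) with an adjusted p of 0.00044 (limma, Benjamini-Hochberg over all probe sets). The 8 markers of skeletal muscle, most of them of fast fibres, averaged 19.1 to 19.3 on every array, near the ceiling of 19.93, and GAS is a mostly fast muscle. None of the 9 myotonic dystrophy genes reached the ceiling, while *Six5* and *Mbnl3* lay in the lowest 25% of all probe sets by mean signal, below 5.13.

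None of the 9 genes passed an adjusted p of 0.05, a call made for 0.027% of all probe sets. At an unadjusted limma p under 0.05, 1 of the 9 (*Celf2*, lower) passed, where 7.58% of all probe sets passed as lower and 4.81% as higher. The 4 MYTHO values lay wholly below the 4 scrmb values for 1 of the 9 (*Mbnl1*), a separation found in that direction for 3.87% of all probe sets and in the other for 2.59%. None of the 9 changed by 2-fold or more, the minimum used by the study, which 1.51% of all probe sets passed together with an unadjusted p under 0.05. Of the log2 fold changes, 4 were negative and 5 positive, with a range of -0.50 to 0.29 and a median of 0.08, beside a median of -0.005 over all probe sets. In bulk muscle, fewer cells of a type and less RNA per cell cannot be told apart, and this holds for every value below.

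**Figure D1:**
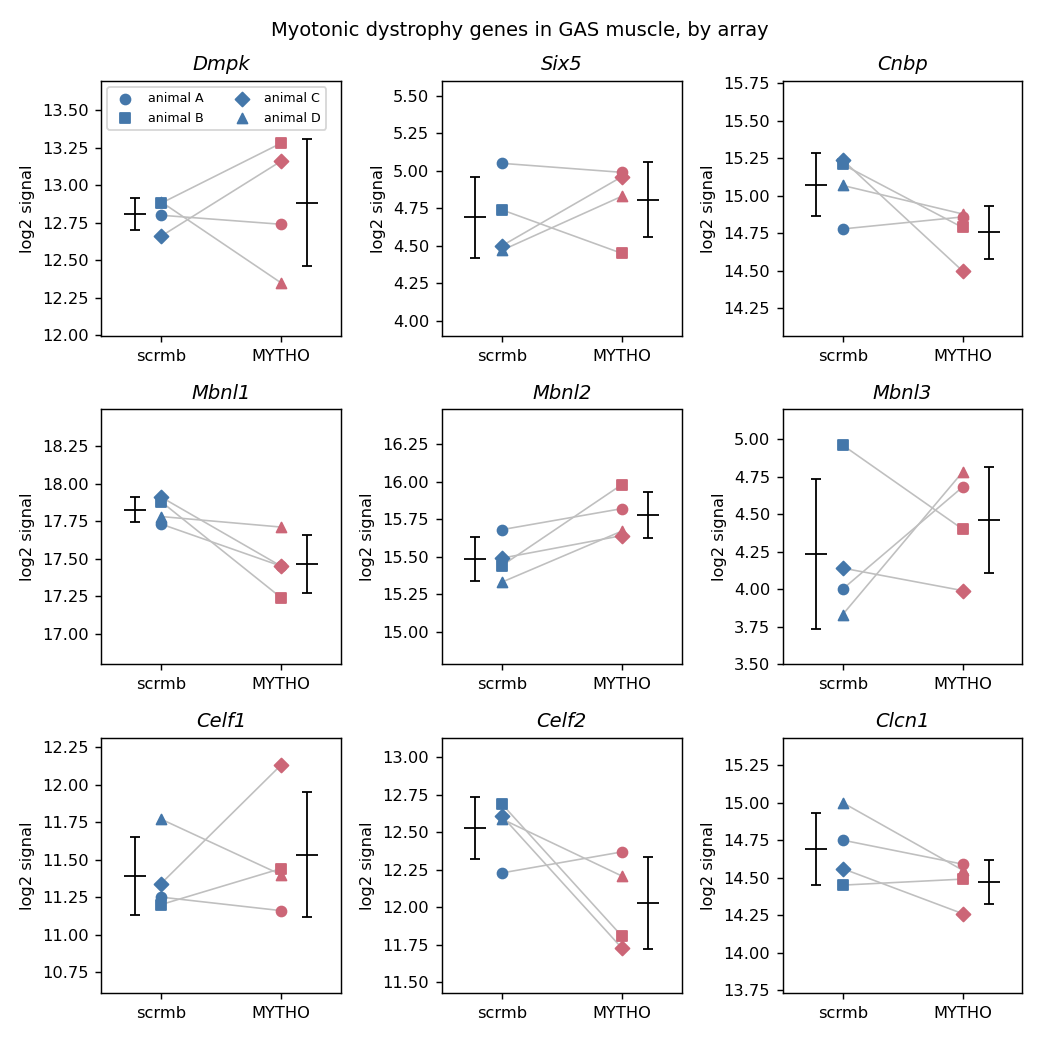
Log2 signal (y axis) of each gene in the 4 scrmb and 4 MYTHO muscles with a y range of its own in each panel. Marker shapes give the animal, grey lines join the legs of one animal, and the bars at the sides are the group mean ± SD. The groups are apart only for *Mbnl1*.

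The muscleblind-like genes code for the splicing factors that the expanded repeats trap. *Mbnl1*, the main one in adult muscle, had log2 signals of 17.73, 17.88, 17.91 and 17.78 in scrmb (animals A to D, the order kept below) and 17.45, 17.24, 17.45 and 17.71 in MYTHO muscle. Every MYTHO muscle lay below every scrmb muscle, though that of animal D only just. The log2 fold change was -0.36 ± 0.17 (SE, 95% interval -0.73 to 0.01), or 77.8% of the scrmb signal (60.1% to 101%), with a limma p of 0.0547 and an adjusted p of 0.416. With animal as a replicate block, the limma p was 0.0841, and with animal as a random effect it was 0.0492. Over 22 alternative fits, it ran from 0.00911 (trend and robust variances) to 0.216 (without both arrays of animal B). It was under 0.05 in 7 of these, and the adjusted limma p was never below 0.203. *Mbnl1* was lower in all 4 animals, by 0.28, 0.64, 0.46 and 0.07 in A to D, as were 10.8% of all probe sets. When each array was centred on its own median, the groups overlapped.

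*Mbnl2*, which shares much of the work of *Mbnl1* and can partly stand in for it, had log2 signals of 15.68, 15.44, 15.49 and 15.33 in scrmb and 15.82, 15.98, 15.64 and 15.67 in MYTHO muscle. The MYTHO muscle was the higher in each animal, by 0.14, 0.54, 0.15 and 0.34, as for 8.94% of all probe sets, but the scrmb muscle of animal A lay among the MYTHO values. *Mbnl2* thus had a log2 fold change of 0.29 ± 0.17 (SE, 95% interval -0.08 to 0.66), with an adjusted limma p of 0.522. The MYTHO-minus-scrmb differences of both genes had opposite signs in every animal. Subtracted within each array, *Mbnl1* minus *Mbnl2* was 2.05 to 2.45 in scrmb and 1.26 to 2.04 in MYTHO muscle, a shift of -0.66 whose size in animals A to D was -0.42, -1.18, -0.61 and -0.41. This contrast was chosen after the values were seen and carries no test, and only its shift can be read, since signals of different probe sets share no scale.

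*Mbnl3*, whose product is known from proliferating and regenerating muscle cells, was dim, at 4.00, 4.96, 4.14 and 3.83 in scrmb and 4.68, 4.40, 3.99 and 4.78 in MYTHO muscle. The groups overlapped widely, with 2 animals higher and 2 lower in MYTHO. Its log2 fold change was 0.23 ± 0.27 (SE, 95% interval -0.35 to 0.81), the widest interval of the 9.

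**Figure D2:**
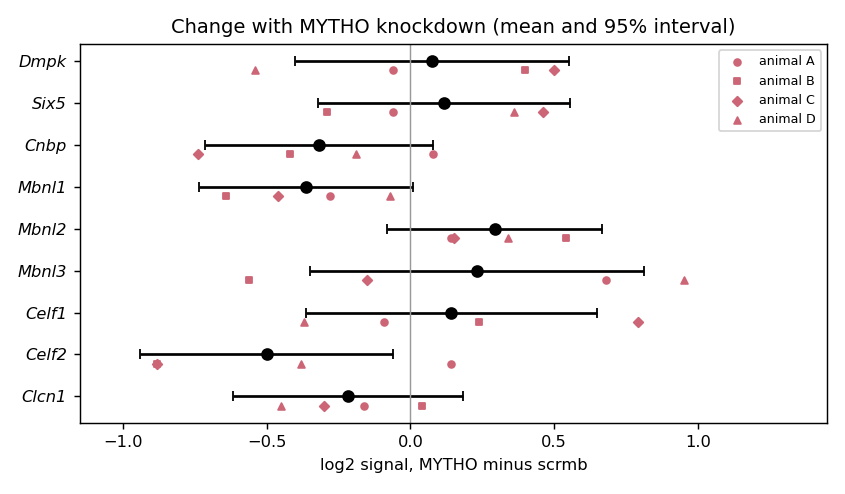
Log2 signal of MYTHO minus scrmb (x axis) for each gene. Black points and bars are the limma estimate and its 95% interval over 4 muscles per group, and red symbols are the differences within animals A to D. The interval leaves out 0 only for *Celf2*, from -0.94 to -0.06, and the animals fall on one side of 0 only for *Mbnl1* and *Mbnl2*.

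The CELF proteins bind GU-rich RNA and act against MBNL proteins on many shared exons. *Celf2* had log2 signals of 12.23, 12.69, 12.61 and 12.59 in scrmb and 12.37, 11.81, 11.73 and 12.21 in MYTHO muscle. The MYTHO muscles of animals B and C were the lowest, while in animal A the scrmb muscle was the lower, by 0.14, and lay within the MYTHO range. The log2 fold change was -0.50 ± 0.20 (SE, 95% interval -0.94 to -0.06), or 70.7% of the scrmb signal (52.1% to 95.9%), with an unadjusted limma p of 0.0292 and an adjusted p of 0.344. With animal as a replicate block, the unadjusted limma p was 0.0518, and with single arrays left out it ran from 0.0143 (without MYTHO A) to 0.0852 (without MYTHO C), above 0.05 without scrmb B, C or D or MYTHO B or C. The size ran from -0.61 to -0.40 over those 8 fits.

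*Celf1*, whose protein is raised and phosphorylated in DM1 muscle, had log2 signals of 11.25, 11.20, 11.34 and 11.77 in scrmb and 11.16, 11.44, 12.13 and 11.40 in MYTHO muscle. The MYTHO muscle of animal C stood highest and the rest of the values were mixed. Its log2 fold change was 0.14 ± 0.23 (SE, 95% interval -0.36 to 0.65), which became -0.057 without MYTHO C. These data therefore bound a change of *Celf1* RNA between 77.7% and 157% of the scrmb signal. The other CELF genes, *Celf3* to *Celf6*, had log2 fold changes between -0.02 and 0.31 and none passed.

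At the DM1 locus, *Dmpk* codes for a kinase of muscle that phosphorylates membrane and cytoskeletal proteins. It covers chr7:19083646-19093821, and *Six5*, a homeobox gene whose loss gives cataracts in mice, follows at chr7:19094544-19098549, 722 bases on with no other listed gene between. *Dmpk* had log2 signals of 12.80, 12.88, 12.66 and 12.89 in scrmb and 12.74, 13.28, 13.16 and 12.35 in MYTHO muscle. The 4 scrmb muscles were close together, while the MYTHO muscles lay both above them (animals B and C) and below them (animal D), with an SD of 0.42 against 0.11. The estimate for *Dmpk* was a log2 fold change of 0.08 ± 0.22 (SE, 95% interval -0.40 to 0.55), and it took the opposite sign without MYTHO B (-0.0575) or MYTHO C (-0.0175). *Six5* had log2 signals of 5.05, 4.74, 4.50 and 4.47 in scrmb and 4.99, 4.45, 4.96 and 4.83 in MYTHO muscle. Both groups covered nearly the same range. Its log2 fold change was 0.12 ± 0.20 (SE, 95% interval -0.32 to 0.56).

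The 11 other neighbours listed lay within 82599 bases of *Dmpk*. Their median was 0.07 on the log2 scale, and none passed an unadjusted p of 0.05 in either direction (1 did without scrmb A). The largest differences were those of *Fbxo46*, an F-box gene (-0.37 ± 0.25, SE), and *Eml2*, a microtubule-binding protein gene (0.35 ± 0.19, SE), both among the 6 neighbours in the lowest 25% of signal, and the *Eml2* row names another gene as well. *Dmwd*, which ends 867 bases before *Dmpk* starts, was at 0.28 ± 0.19 (SE). Among 10 genes for DMPK substrates or partners of the *Six5* family, 1 passed the unadjusted p as lower and 1 as higher. The higher one was *Fxyd1*, whose product phospholemman is a DMPK substrate that tunes the sodium pump, at 14.04 to 14.31 in scrmb and 14.45 to 14.92 in MYTHO muscle, a log2 fold change of 0.41 ± 0.18 (SE, adjusted limma p 0.373). The lower one, named after its values were seen because its groups overlapped, was *Eya4*, a cofactor of the same homeobox family (-0.52 ± 0.23, SE, adjusted p 0.375). Neither passed without scrmb C, scrmb D, MYTHO A or MYTHO B. Under the alternatives that kept all 8 arrays, among them the block on animal, 1 to 3 of the 10 passed. In the main fit, 7.58% of all probe sets passed as lower and 4.81% as higher.

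*Cnbp* codes for a nucleic acid binding protein that aids translation. Its log2 signals were 14.78, 15.21, 15.24 and 15.07 in scrmb and 14.86, 14.79, 14.50 and 14.88 in MYTHO muscle. The scrmb muscle of animal A lay among the MYTHO values, and the other scrmb muscles lay above all of them. For *Cnbp* the log2 fold change was -0.32 ± 0.18 (SE, 95% interval -0.71 to 0.08, adjusted limma p 0.513), with MYTHO lower in 3 of 4 animals. Without scrmb A, the groups were apart for 4 of the 9 genes in place of 1 (*Mbnl1*, *Mbnl2*, *Celf2* and *Cnbp*), where 10.4% of all probe sets then separated. Without any other single array it was 1 or 2 of the 9, against 8.79% to 13.5% of all probe sets. *Zcchc13*, the intronless relative of *Cnbp*, passed the unadjusted p and had groups apart, at 3.09 to 3.72 in scrmb and 3.76 to 4.05 in MYTHO muscle (0.50 ± 0.20, SE, adjusted p 0.333), but in the lowest 25% of signal. It was the 1 gene to pass of 23 relatives of the 9, which also covered the CELF, DMPK-like kinase, chloride channel and sine oculis homeobox families and had a median of 0.04. Over all probe sets, 7.58% passed as lower and 4.81% as higher. None of the 23 passed without scrmb C, MYTHO A or MYTHO D, nor among the upper 75% or 50% of probe sets, which leave out *Zcchc13*. The count was 2 without scrmb A, with the replicate block on animal, with array weights, and with trend and robust variances. Under these, 11.4% to 13% of all probe sets passed.

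*Clcn1* codes for ClC-1, the chloride channel that keeps muscle fibres from firing again after a contraction. Its log2 signals were 14.75, 14.45, 14.56 and 15.00 in scrmb and 14.59, 14.49, 14.26 and 14.55 in MYTHO muscle. The MYTHO muscles lay low in the scrmb range, that of animal C below it, and the groups overlapped. For *Clcn1* it came to a log2 fold change of -0.22 ± 0.18 (SE, 95% interval -0.62 to 0.18), or 86.0% of the scrmb signal (65.2% to 113%), with MYTHO lower in 3 of 4 animals and an adjusted limma p of 0.685. The RNA level of the channel was therefore bounded, and its splicing was not measured.

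Of 14 other genes of membrane excitability, 12 had a positive log2 fold change, 3 passed the unadjusted p as higher and none as lower, with a median of 0.26. Over all probe sets, 48.95% were positive and 4.81% passed as higher. The count of 3 fell to 0 without scrmb A and without MYTHO B, where 11.4% and 9.84% of all probe sets passed. By animal, MYTHO minus scrmb of the mean of the 14 was 0.24, 0.48, 0.28 and -0.14 in A to D. That mean stood apart as high in the scrmb muscle of animal D and the MYTHO muscle of animal B, as given further below. *Kcnj12*, an inward rectifier potassium channel, lay at 9.90 to 10.73 in scrmb and 10.83 to 11.43 in MYTHO muscle (0.54 ± 0.23, SE, adjusted limma p 0.364). *Fxyd1*, described above, was another of the 3. *Scn4a*, the muscle sodium channel, was at -0.20 ± 0.23 (SE), and none of the 14 passed the adjusted p.

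The RNAs whose splicing goes wrong in DM1 can be read here only for their total level. Of 22 such genes, 2 passed the unadjusted p as higher and none as lower, and the median was 0.001. Over all probe sets, 4.81% passed as higher and 7.58% as lower. The count of the 22 was 4 after quantile normalization and without scrmb A, and 1 without scrmb C or MYTHO B. Of all probe sets, 12.7%, 11.4%, 9.5% and 9.84% passed under these, in that order. *Dmd*, which codes for dystrophin, had log2 signals of 8.61, 9.78, 9.15 and 9.33 in scrmb and 10.11, 10.46, 10.05 and 10.33 in MYTHO muscle. Every MYTHO muscle lay above every scrmb muscle. *Dmd* thus had a log2 fold change of 1.02 ± 0.24 (SE, 95% interval 0.50 to 1.54), with an adjusted limma p of 0.130. The other was *Atp2a2*, the calcium pump of slow fibres, whose groups overlapped (1.51 ± 0.56, SE, adjusted p 0.303) and which is also among the slow-fibre markers below. *Atp2a1*, the pump of fast fibres, was at the ceiling on all 8 arrays and gives no difference, and *Insr*, *Bin1*, *Cacna1s* and *Ryr1* lay between -0.29 and 0.22 without passing.

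Of 16 other RNA-binding proteins that act with or beside MBNL and CELF, 11 had a negative log2 fold change, 1 passed the unadjusted p as lower and none as higher, with a median of -0.14. Over all probe sets, 50.6% were negative, 7.58% passed as lower and 4.81% as higher. The count of the 16 was 2 without scrmb B and 3 without scrmb D, where 9.99% and 14.4% of all probe sets passed. *Hnrnph1*, a splicing factor that binds CUG-repeat RNA, had log2 signals of 11.90, 12.09, 12.41 and 11.94 in scrmb and 11.54, 11.28, 11.19 and 11.67 in MYTHO muscle. The groups were apart and MYTHO was lower in all 4 animals. The log2 fold change was -0.67 ± 0.19 (SE, 95% interval -1.08 to -0.25), or 63.1% of the scrmb signal, with an adjusted limma p of 0.200. Among 14 genes of the kinase and growth signalling altered in DM1, 1 passed as lower and 1 as higher, with a median of 0.06. This stands beside the same 7.58% and 4.81% of all probe sets. Only 1 passed without scrmb A, B or C or MYTHO B, where 9.5% to 11.4% of all probe sets passed. *Prkcb*, a protein kinase C gene, lay at 7.01 to 7.43 in scrmb and 6.16 to 6.84 in MYTHO muscle (-0.59 ± 0.20, SE, adjusted p 0.257). *Akt1*, a growth kinase whose groups overlapped and which was named after its values were seen, was at 0.65 ± 0.27 (SE, adjusted p 0.362). *Prkca*, another protein kinase C gene, was at 0.005 ± 0.18 (SE). No gene of these 7 lists passed the adjusted p.

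**Figure D3:**
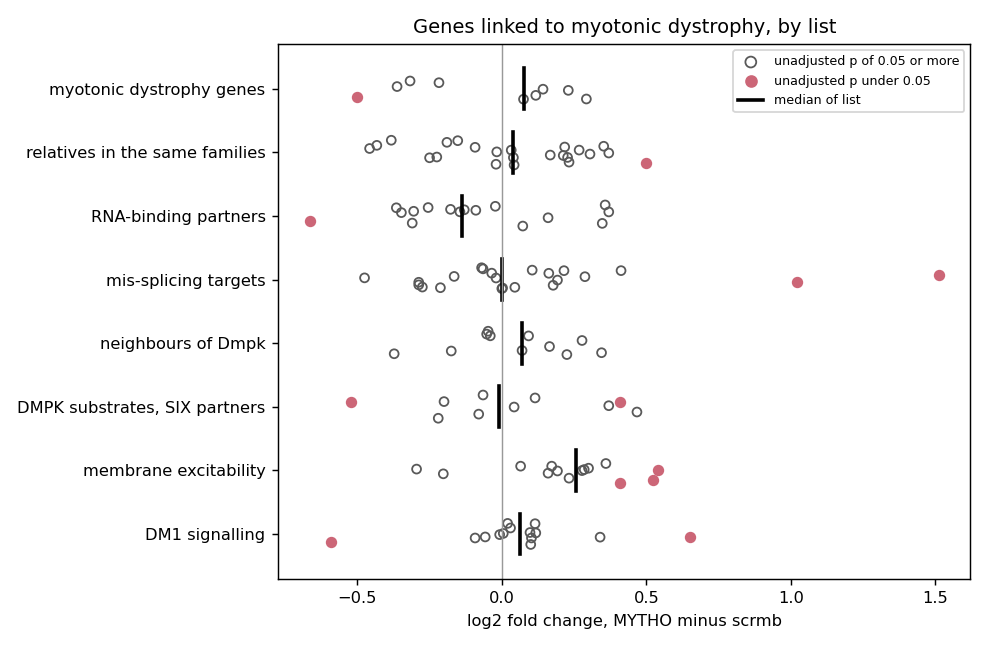
Log2 fold change of MYTHO minus scrmb (x axis) for every gene of the 9 and of 7 lists tied to myotonic dystrophy (rows), with the list median as a black bar. Filled red points have an unadjusted limma p under 0.05. The 9 genes and the lists centre between -0.14 and 0.26, and *Dmd* and *Atp2a2* lie farthest to the right.

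Some markers of fibre type and of other cells had an unadjusted p under 0.05, and none passed the adjusted p. All 8 slow-fibre markers had positive log2 fold changes, 7 with an unadjusted p under 0.05, and their mean log2 signal ran from 11.6 to 13.7 in scrmb and from 11.7 to 14.9 in MYTHO muscle. By animal, that mean was higher in MYTHO by 1.18, 2.52, 2.87 and 0.08 in A to D. The scrmb muscle of animal A, whose *Cnbp*, *Celf2* and *Mbnl2* values fell among those of MYTHO muscle, was the scrmb muscle with the highest slow-fibre mean. That muscle also had the highest endothelial mean and the lowest fibroblast mean of the scrmb muscles, for the markers given below. All 6 endothelial markers were positive too, 2 of them with an unadjusted p under 0.05 (*Tek* at 0.86 ± 0.26 and *Pecam1* at 0.45 ± 0.19, SE), and their mean ran from 9.77 to 10.29 in scrmb and from 10.44 to 10.60 in MYTHO muscle. By animal, the endothelial mean was higher in MYTHO by 0.15, 0.51, 0.75 and 0.43. Beside these, MYTHO minus scrmb in animals A to D was 0.14, -0.88, -0.88 and -0.38 for *Celf2*, and 0.08, -0.42, -0.74 and -0.19 for *Cnbp*. For *Clcn1* it was -0.16, 0.04, -0.30 and -0.45. The values of *Mbnl1* and *Mbnl2* by animal are given above. Over the 8 arrays, the Pearson correlation with the slow-fibre and endothelial means, given as a description with legs of an animal not independent and the groups pooled, was -0.84 and -0.86 for *Mbnl1*, -0.77 and -0.85 for *Cnbp*, -0.72 and -0.84 for *Celf2*, and 0.75 and 0.80 for *Mbnl2*. For the other 5 of the 9 it lay between -0.42 and 0.57. With the fibroblast mean described next, it was 0.46 for *Mbnl1*, 0.58 for *Cnbp*, 0.77 for *Celf2*, -0.36 for *Mbnl2* and between -0.51 and 0.25 for the others. Of 6 fibroblast markers, 4 had a negative and 2 a positive log2 fold change. An unadjusted p under 0.05 was reached by 2 of the negative ones, among them *Dcn* (-0.60 ± 0.19, SE). The mean of the 6 ran from 10.6 to 10.8 in scrmb and from 10.3 to 11.0 in MYTHO muscle. By animal, MYTHO minus scrmb of that mean was 0.363, -0.44, -0.375 and -0.205 in A to D. No slow-fibre, endothelial or fibroblast marker lay in the lowest 25% of signal. Of the 8 skeletal muscle markers, 1 passed the unadjusted p as higher, *Myh1*, the myosin of type IIx fibres (0.70 ± 0.25, SE), while *Acta1* and *Myh4* were at the ceiling on all arrays and could not be read. Among satellite and regenerating cell markers 1 of 7 passed as higher, *Myog* (0.65 ± 0.24, SE). Of these 7, *Myh8* was at the ceiling on all arrays and could not be read either. No macrophage, adipocyte, Schwann cell or blood marker passed. The part of fibre type and cell make-up in the values of the myotonic dystrophy genes was not tested.

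Across the 8 arrays the genes did not move as one. In scrmb animals B, C and D, *Celf2*, *Mbnl1* and *Cnbp* lay above their own means over the 8 arrays, and in MYTHO animals B and C all 3 lay below, by 0.55 for *Celf2* and 0.42 for *Cnbp* in animal C. *Mbnl2* was above its mean in all 4 MYTHO muscles and below it in scrmb animals B, C and D. *Dmpk*, *Celf1* and *Mbnl3* spread mostly within groups. *Dmpk* ran from 0.49 below its mean in MYTHO D to 0.43 above it in MYTHO B, and *Celf1* was 0.67 above its mean in MYTHO C.

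**Figure D4:**
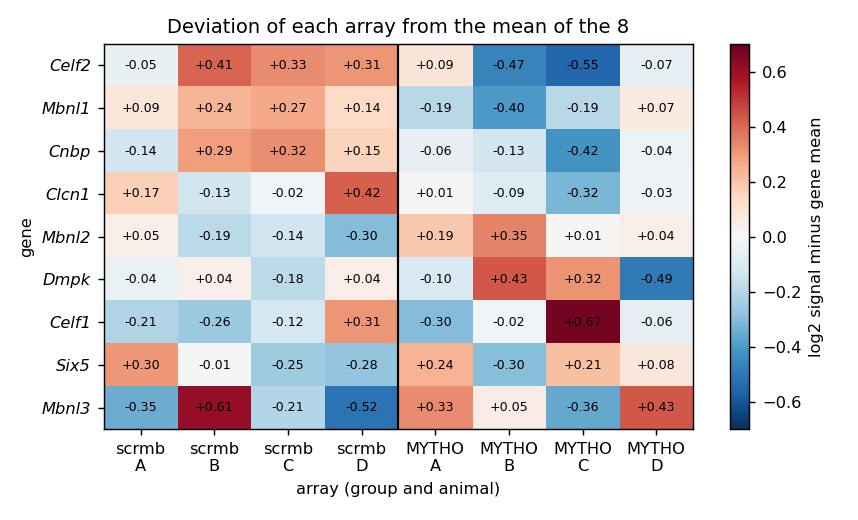
Deviation of each array from the gene's mean over the 8 arrays, in log2 signal (colour and printed value), with genes in rows and arrays in columns by group and animal. The upper 3 rows are mostly red in scrmb and blue in MYTHO muscle, the *Mbnl2* row runs the other way, and the lowest rows vary within groups.

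For each gene, the genes with the most similar pattern were sought by Pearson correlation over the 8 arrays, among 9586 unsaturated probe sets of the brighter part of the array with a single named gene. The arrays come as pairs of legs from 4 animals, and the values, being the top of many, carry no p. Among the genes most like *Mbnl1* were *Tti2* (r = 0.98) and *Ube2q2* (0.97), and *Mbnl2* was most like *Plxna2* (0.99), *Nsun4* (0.97) and *Rgs14* (0.96). *Celf2* was most like *Fxr1*, an RNA-binding protein gene of the fragile X family (0.99), *Cdk19* (0.98) and *Xpot* (0.98), and *Cnbp* most like *Dcaf8* (0.99), *Mllt11* (0.97) and *Arl3* (0.97). *Dmpk* was most like *Map4k5* (0.98), *Tmx2* (0.98) and the heat shock gene *Hspa1a* (0.95), *Celf1* most like *Klhl4* (0.94), *Usp36* (0.94) and *Lmtk3* (0.92), and *Clcn1* most like *Arfgap1* (0.95), *Gpx7* (0.94) and *Rpp14* (0.94). The dim genes had partners as well, *Fgf9* (0.98), *Cdc42* (0.96) and *Bscl2* (0.96) for *Six5* and *Pde5a* (0.95), *Ap1s2* (0.94) and *Kpna3* (0.94) for *Mbnl3*.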

How the data were processed

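RNA from 20 to 25 mg of GAS was hybridised to Clariom S Mouse arrays. The authors deposited gene-level log2 signals (SST-RMA, Transcriptome Analysis Console 4.0.1 with default settings, annotation release 36, mm10), rounded to 2 decimals, from 2.38 to a ceiling of 19.93, where a probe set is saturated. Their deposited group averages, fold changes, p-values and false discovery rates were not used.

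MYTHO minus scrmb was fitted on all 22206 probe sets with limma 3.58.1 (R 4.3.3), two-sided, with Benjamini-Hochberg adjustment and without a block, since the array methods of the study name an ebayes ANOVA with no mention of pairing. The script was tested on simulated data. Precision is limited by 4 arrays per group, the spread among animals, dim signals and saturation. Column names carry an animal number found once per group, and the design pairs both legs of an animal. Deviations from group means correlated at 0.003, -0.001, 0.13 and 0.09 in animals A to D. Which column holds which labelled replicate number is not known, so blocks used the animal number. Members and lists were chosen with earlier results of these data known. Of each list, genes with an unadjusted p under 0.05 and no overlap between groups were named, at most 5, or else the 2 with the largest change, and 3 most similar probe sets per member. A few genes that met these rules or are counted are not reported here by name. A gene found on several rows would take the brightest. Alternatives covered normalization, filters on dim or saturated probe sets, variance model, array weights, blocks on animal, 1 row per symbol, and leaving out each array or, chosen after seeing the data, each animal.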

Additional observations from a re-analysis of the deposited data

Results flagged for a closer look

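Of 54 sets of 4 muscles checked, 6 held 1 muscle whose gap to the nearest of the others, as a share of the set's whole range, passed the 95% critical value of Dixon's test, where chance gives about 1 in 20. None concerned one of the 9 myotonic dystrophy genes. For the target of the hairpin, D230025D16Rik, the MYTHO muscle of animal C stood above the rest at 8.80, against 8.08 to 8.20 (a gap of 0.833 of the range). The mean of the slow-fibre markers was high in the scrmb muscle of animal A, at 13.7 against 11.6 to 11.9 (0.842), and low in the MYTHO muscle of animal D, at 11.7 against 14.4 to 14.9 (0.859). The mean of the membrane excitability genes was high in the scrmb muscle of animal D, at 11.70 against 11.30 to 11.37 (0.840), and in the MYTHO muscle of animal B, at 11.84 against 11.57 to 11.59 (0.921). The mean of the satellite and regenerating cell markers was low in the scrmb muscle of animal C, at 7.72 against 8.06 to 8.13 (0.835).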

How the results depend on the processing

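No myotonic dystrophy gene passed an adjusted p of 0.05 under any of the 22 alternatives, and the target of the hairpin passed in all of them (adjusted limma p up to 0.0369). Of 194 single values for the 9 genes, 187 kept their direction and 7 turned. With single arrays left out, the log2 fold change of *Dmpk* ran from -0.0575 to 0.25 and that of *Celf1* from -0.0567 to 0.27, while *Clcn1* ran from -0.30 to -0.11, *Six5* from 0.044 to 0.24, *Mbnl3* from 0.096 to 0.47, *Cnbp* from -0.42 to -0.23, *Mbnl1* from -0.44 to -0.29 and *Mbnl2* from 0.22 to 0.36. Without both arrays of an animal, *Dmpk* was at -0.0333 (B) and -0.0667 (C), *Celf1* at -0.0733 (C) and *Mbnl3* at -0.01 (D). The cause was not tested. The count of the 9 with an unadjusted p under 0.05, 1 in the fit without a block, was 0 with the replicate block on animal and 2 with animal as a random effect, and the replicate block changed no other call of the 9 genes. It was 2 after quantile normalization and among the upper 75% or upper 50% of probe sets, which leave out *Six5* and *Mbnl3*, and 4 with trend and robust variances (*Celf2*, *Mbnl1*, *Cnbp* and *Mbnl2*), where 12.7%, 14.2%, 16% and 12.8% of all probe sets passed, in that order, against 12.4% in the main analysis, 12.6% with the block and 13.4% with the random effect. It was 0 to 2 with single arrays left out and 0 without animal B or C, where 9.5% to 14.4%, 7.90% and 8.24% of all probe sets passed. The count of the 9 whose groups did not overlap was 0 after median centring (6.34% of all probe sets), which shifts the median log2 fold change by 0.04, 1 to 4 with single arrays left out (8.79% to 13.5% of all probe sets, 10.4% for the 4) and 4 without animal A (15.6%). The median of the 9 was -0.22 among the upper 75% and the upper 50%, -0.0333 without animal B, -0.0733 without animal C, -0.01 without animal D, and -0.0575 to 0.11 with single arrays left out. Counts of list genes with an unadjusted p under 0.05 moved by over 1.5 times in 46 cases and did not in 108. *Dmd* passed with trend and robust variances (adjusted p 0.0492). With 4 arrays per group, the 95% intervals of the 9 reached 0.37 to 0.58 to either side of the log2 fold change, so smaller changes could be missed, and the signals of *Six5* and *Mbnl3* were low.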
